A study of Mus musculus with 4 samples.

Results

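The 9 hedgehog pathway genes described here are Shh (the ligand), Disp1 (ligand release), Ptch1, Hhip and Boc (cell-surface receptors and ligand-binding proteins), Smo (the signal transducer) and Gli1, Gli2 and Gli3 (transcriptional effectors), out of 21779 protein-coding genes of the mouse annotation. A peak was counted for a gene when its summit lay inside the gene's annotated span, or within 100 kb of it with that gene as the nearest protein-coding gene. By this rule the genes had 9 of the 4289 peaks of replicate 1 and 8 of the 2832 peaks of replicate 2. Binding of HOXA5, a homeodomain transcription factor, was measured by chromatin immunoprecipitation and sequencing (ChIP-seq) to address where it occupies the genome during lung formation. The series holds 2 anti-FLAG immunoprecipitates and 2 inputs, all from lungs of E15.5 mouse embryos of genotype Hoxa5FLAG/FLAG, in which both copies of the endogenous gene encode a FLAG-tagged protein. The sample titles carry wt beside this genotype label, a disagreement that the labels do not resolve, and the genotype label was followed. The peak lists of the 2 immunoprecipitates were used. No input data and no untagged control were used here. Whether the authors' folds were computed against the inputs was not given.

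In hedgehog signalling a lipid-modified ligand is released from the producing cell by Dispatched and binds Patched on the receiving cell. Patched otherwise holds Smoothened inactive, and once it is bound, Smoothened signals at the primary cilium to the GLI transcription factors. In the developing mouse lung Shh is made by the epithelium and is received mainly by the surrounding mesenchyme, the tissue layer in which Hoxa5 is expressed. Ptch1, Hhip and Gli1 are themselves transcribed in response to the signal.

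Fold enrichment and −log10 q at a summit are the authors' values and rank a peak within its list, so the replicates' values are given side by side and not compared. Read counts are not part of the lists, which leaves depth unknown and the folds without an error. Nothing in the labels ties the replicates to separate litters, so agreement between them may be partly technical. Names of peaks in the replicate 2 list bear a different replicate number from the sample title, and the title was followed. The median fold was 3.87 in replicate 1 and 3.36 in replicate 2. A peak was called shared when the lists overlapped by at least 1 bp, which gave 2175 shared peaks. Of the replicate 1 peaks 51.2% had a partner, and of the replicate 2 peaks 77.6%. Positions are in mm10, the genes come from RefSeq (GRCm38.p6), and exons and introns were not told apart.

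Of the 9 genes, 5 had a shared peak: Disp1, Ptch1, Boc, Smo and Gli2. Over all protein-coding genes the share with a shared peak was 5.97% (95% Wilson interval 5.66 to 6.29). These 5 genes had 6 shared peaks, 4 of them inside a gene. Replicate 1 alone gave peaks to the same 5 genes, against 10.4% of protein-coding genes. Replicate 2 alone gave peaks to 7 genes, adding Hhip and Gli3, against 7.58% of protein-coding genes. Shh and Gli1 had no peak in either list. With summits of a shared peak required to lie within 100 bp of each other, 3 genes remained, Disp1, Ptch1 and Smo, against 4.54% of protein-coding genes. The genes were chosen with results of these data known, so these counts are a description and carry no test.

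The count is set beside gene length, since the share of genes with a shared peak rose with the span. Why it rose was not tested. Among protein-coding genes the share with a shared peak was 2.49% for spans under 20 kb, 5.83% for 20 to 100 kb and 23.3% for 100 kb or more. Shh (10.3 kb) and Gli1 (11.7 kb) are the shortest of the 9 genes, and neither had a shared peak. In the middle class Ptch1 (65.1 kb), Boc (73.8 kb) and Smo (25.9 kb) had one and Hhip (92.2 kb) had none. Of the long genes Disp1 (135 kb) and Gli2 (220 kb) had one, and Gli3 (266 kb), the longest, had none.

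**Figure D1:**
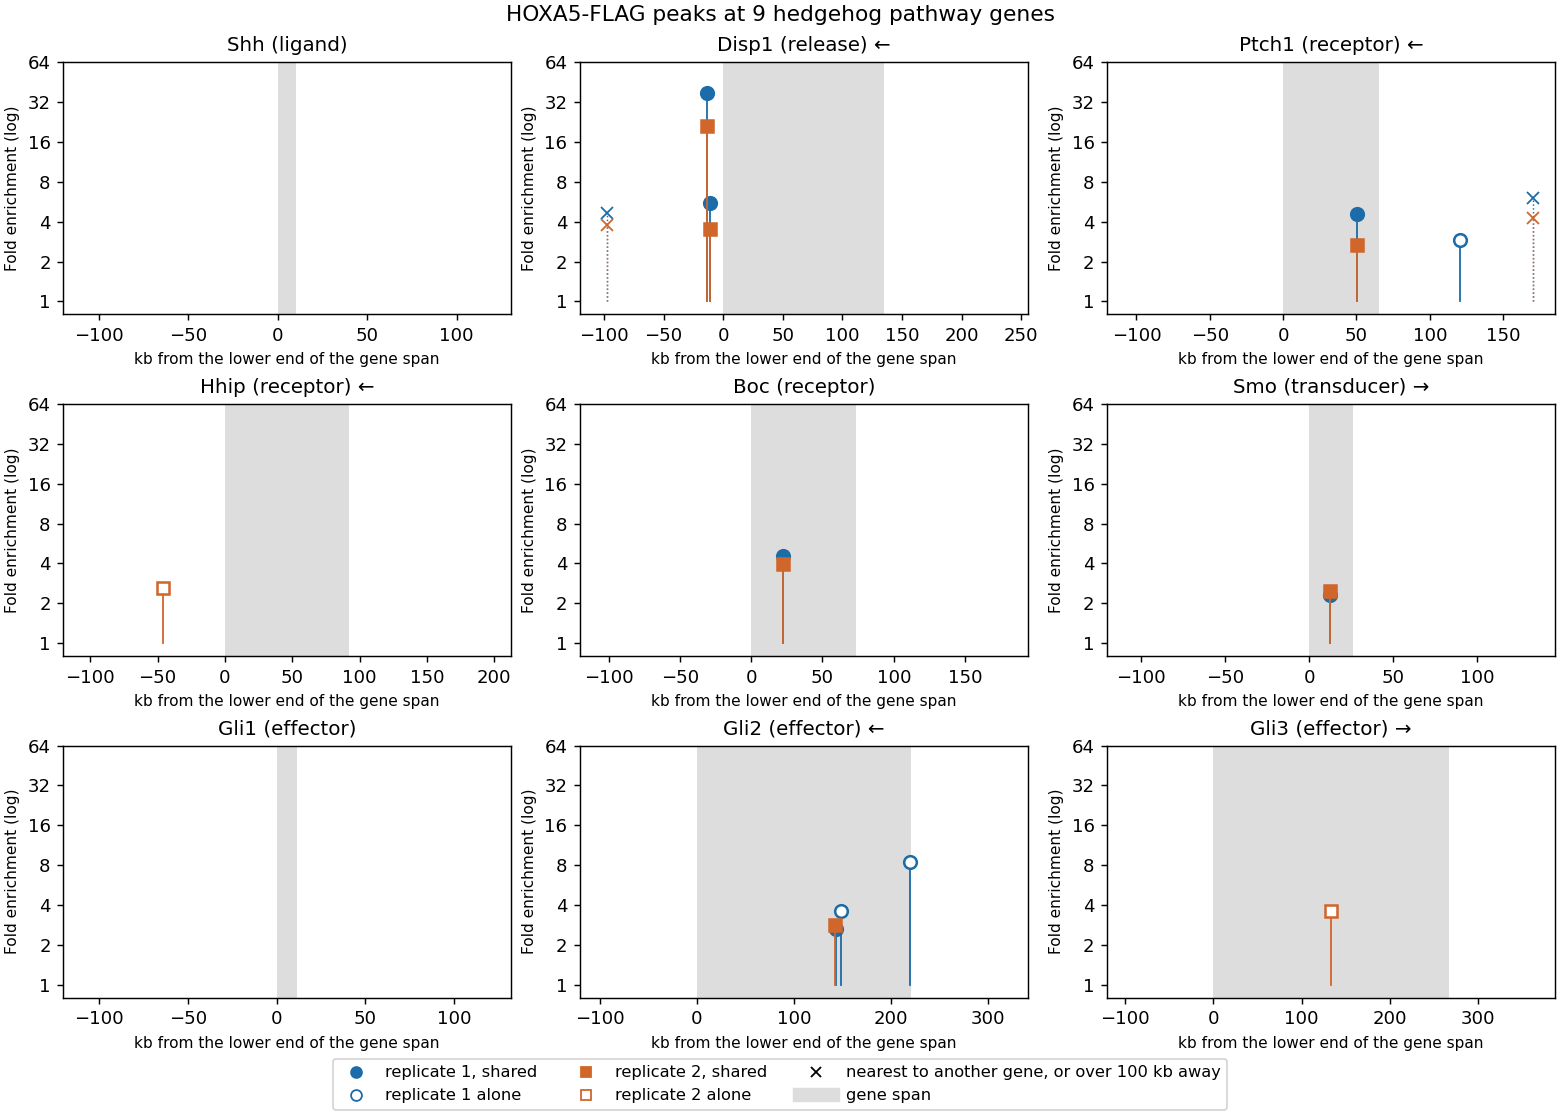
Fold enrichment (log axis) of each HOXA5-FLAG peak against distance in kb from the lower-coordinate end of the gene span, for the 9 genes in pathway order; grey marks the gene span, circles replicate 1 and squares replicate 2, filled symbols shared peaks, open symbols peaks of 1 list, and crosses peaks nearest to another gene or over 100 kb away, and an arrow beside a name gives the direction of transcription where it was known. Shared peaks stand at Disp1, Ptch1, Boc, Smo and Gli2, the highest at 37.3- and 21.2-fold beside Disp1, while the Shh and Gli1 panels are empty.

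A single peak lay over a listed start of these genes, at Gli2, and the sequence of that start window is given for this reason. RefSeq start windows, which run from 250 bases before a start to 50 after it, were matched for 6 of the 9 genes (7 windows); Shh, Boc and Gli1 had none in the table. A peak of replicate 1 covered the whole Gli2 window and no peak of either list overlapped the others. The window is chr1:119053570-119053869 on the minus strand (GRCm38.p6), written 5′ to 3′ along the gene, with capitals for the match to the PBX-HOX composite motif TGATNNAT:

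Gli2: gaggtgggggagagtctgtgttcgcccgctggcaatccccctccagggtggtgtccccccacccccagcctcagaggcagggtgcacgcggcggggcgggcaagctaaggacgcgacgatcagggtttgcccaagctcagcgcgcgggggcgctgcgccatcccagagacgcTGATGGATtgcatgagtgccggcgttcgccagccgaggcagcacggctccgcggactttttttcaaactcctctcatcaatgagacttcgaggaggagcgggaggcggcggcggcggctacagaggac

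The match, TGATGGAT, runs from 78 to 71 bases before the start, and the peak's summit lay 74 bp before it. Searched on both strands, TGATNNAT was present in 8.85% of the 32851 start windows of the table and in 1 of the 7 windows of these genes. The homeodomain motif TAATTA (5.29% of all windows) and the GLI motif GACCACCCA (0.253%) were in none of the 7. The Gli2 window held no other match, so no matches overlapped. A match describes letters, not a bound site. The Gli2 window is 67.3% G and C, against a median of 52.7% over all windows.

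Shh, the ligand gene (chromosome 5, 28456840 to 28467101), had no peak within 100 kb in either list. Its nearest shared peak was 2060 kb away, and 91.1% of protein-coding genes had one as near or nearer. Shh is known for enhancers that act over long distances, some of them in the gene-poor interval on one side of it. That interval, 726 kb between Shh and Rnf32, held a single peak. It was a replicate 2 peak with 3.41-fold enrichment, 486 kb from Shh and inside the noncoding gene Gm35688, and it had no partner in replicate 1. Within 1 Mb of Shh there were 0 peaks in replicate 1 and 1 in replicate 2, where the median protein-coding gene had 3 and 2. No shared peak within 1 Mb was also the case for 27.3% of protein-coding genes.

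Disp1 encodes Dispatched, the membrane protein through which the lipid-bearing ligand leaves the cell. Its span is chromosome 1, 183086264 to 183221537, and it had the peak of highest fold among the 9 genes in each list. At 183072344 to 183072936, replicate 1 had 37.3-fold enrichment, and its −log10 q was 525. In replicate 2 the peak ran from 183072349 to 183072925 and reached 21.2-fold, its −log10 q being 225. The folds ranked 5 from the top of the replicate 1 list and 2 from the top of the replicate 2 list. The summits lay 1 bp apart and the replicate 2 peak fell wholly within the replicate 1 peak.

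Disp1 is transcribed from the minus strand, so this peak is 13.6 kb past the 3′ end of the gene and 74.9 kb downstream of the nearer of its 2 listed starts. It lay closer to the noncoding gene Gm33747, at 6.97 kb. The next protein-coding gene on that side is Tlr5, a receptor for bacterial flagellin, whose span ends 110 kb from Disp1. A second shared peak stood 2.6 kb nearer to Disp1 in replicate 1 and 2.71 kb nearer in replicate 2. Its replicate 1 peak (183075132 to 183075580) reached 5.53-fold and its replicate 2 peak (183075142 to 183075594) 3.53-fold, both above the median of the list. Of 45 shared peaks with at least 20-fold enrichment in replicate 1, 2 had another shared peak within 5 kb, and the Disp1 peak was one of them. A further shared peak between Disp1 and Tlr5, 97.4 kb from Disp1 with 4.61- and 3.79-fold enrichment, had Tlr5 as its nearest gene and was not counted for Disp1.

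**Figure D2:**
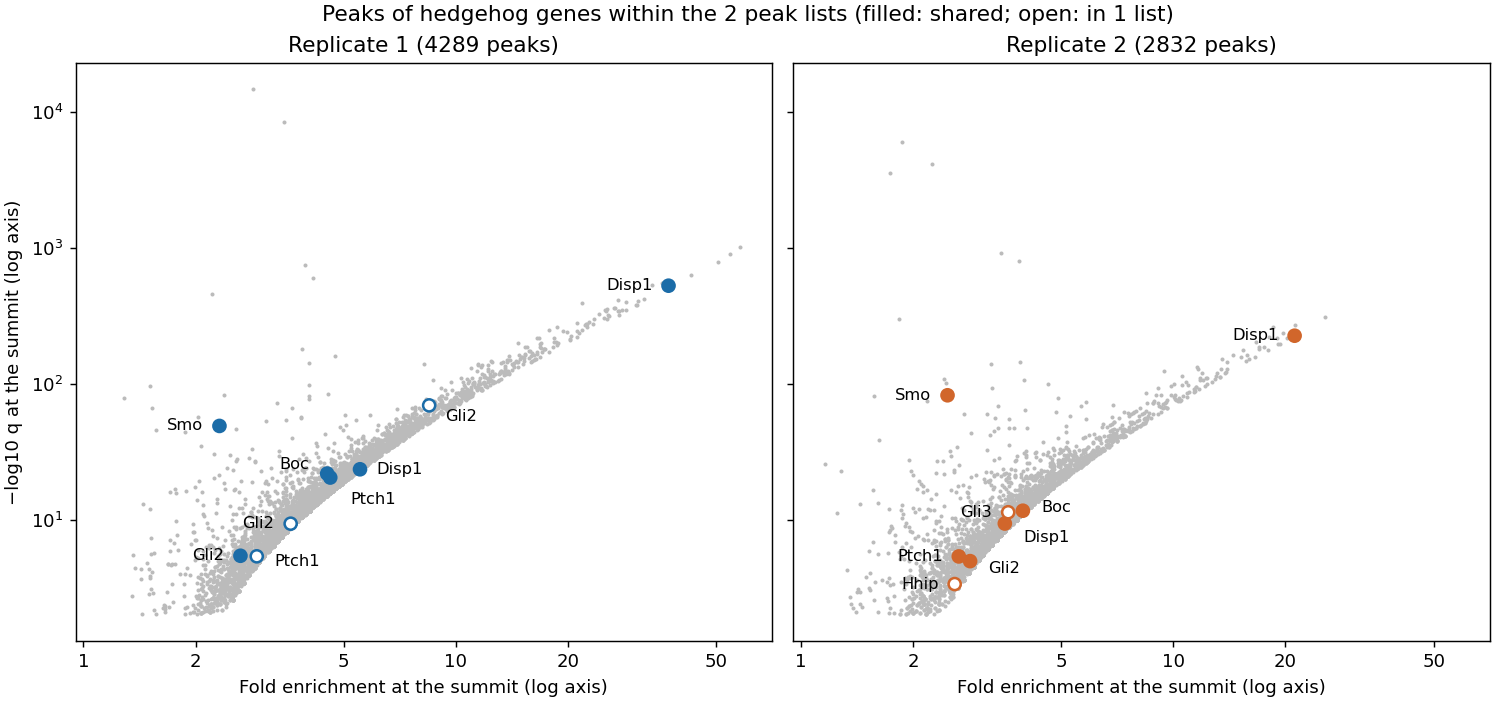
Fold enrichment at the summit against −log10 q (both log axes) for all peaks of replicate 1 (left, 4289) and replicate 2 (right, 2832) in grey, with the peaks of the hedgehog genes coloured and named, filled where shared and open where in 1 list. Disp1 has a peak at the upper end of each list, at 37.3- and 21.2-fold, and Smo lies apart from the main band, where −log10 q was 48.9 and 82.1 at 2.32- and 2.47-fold.

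Ptch1, the receptor and a transcriptional target of the pathway (chromosome 13, 63508328 to 63573460, minus strand), had a shared peak inside the gene. The replicate 1 peak, 63558581 to 63558921, had 4.60-fold enrichment and a −log10 q of 20.4. The replicate 2 peak, 63558592 to 63558855, reached 2.65-fold, its −log10 q being 5.37. The summits were 57 bp apart, and the replicate 1 summit was 6.98 kb downstream of the listed start. That start, the only one listed, is at 63565735, inside the span. The summit is therefore farther than this from the 5′ end of the span. The fold was above the list's median in replicate 1 and below it in replicate 2, at percentile 65.9 and 21.7 of the lists.

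A replicate 1 peak of 2.92-fold lay 55.5 kb outside Ptch1, on the side of its start, and had no partner. It was the farthest peak inside the 100 kb limit. Just outside that limit, at 105 kb on the same side, a shared peak reached 6.05-fold in the first list and 4.29-fold in the second. Its summit lay inside the noncoding gene 1700024I08Rik, and Ptch1 was still its nearest protein-coding gene. Both of its folds were higher than those of the peak inside Ptch1. Ercc6l2, the next protein-coding gene on that side, begins 238 kb from Ptch1. Within 1 Mb of Ptch1 there were 5 shared peaks, where the median protein-coding gene had 1. Those at 390 and 469 kb lay inside Aopep, and the one at 448 kb had Hsd17b3 as its nearest protein-coding gene. By the same count Disp1 and Boc had 4 each, Hhip, Smo, Gli1 and Gli2 had 1 each, and Shh and Gli3 had 0.

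Hhip encodes a membrane protein that binds hedgehog ligands and limits their range. It had no shared peak in or near its span (chromosome 8, 79965850 to 80058060, minus strand). A replicate 2 peak of 2.59-fold (79919890 to 79920403, −log10 q of 3.36) lay 45.9 kb past the 3′ end of the gene. It was among the lower peaks of its list, at percentile 19.2 of fold, and at percentile 36.4 among replicate 2 peaks without a partner. Beyond the limit, a replicate 1 peak of 2.85-fold stood 146 kb away on the other side, with Hhip as its nearest protein-coding gene and no partner. The shared peak nearest to Hhip lay 342 kb from it.

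Boc, a coreceptor that binds the ligand together with Patched, had 1 shared peak, inside the gene (chromosome 16, 44485045 to 44558870). Replicate 1 had 4.51-fold enrichment at 44507299 to 44507690 with a −log10 q of 21.8, and replicate 2 had 3.94-fold at 44507388 to 44507872 with 11.6. Both folds were above the median of their list, at percentile 64.1 and 67.4. The summits were 130 bp apart, and the peaks shared 303 bp. Further shared peaks 137 and 161 kb from Boc had Nepro as their nearest protein-coding gene.

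Smo encodes Smoothened, the receptor-like protein that carries the signal to the GLI proteins. Its shared peak lay inside the gene (chromosome 6, 29735497 to 29761366, plus strand), 12.6 kb downstream of the start. The replicate 1 peak spanned 1033 bp (29747901 to 29748933) at 2.32-fold, and the replicate 2 peak 657 bp (29747912 to 29748568) at 2.47-fold. The summits were 3 bp apart. In replicate 1 it was the one peak of the 9 genes longer than 1000 bp, and none of their replicate 2 peaks was. Over the lists 10.8% of replicate 1 peaks and 17.6% of replicate 2 peaks passed that length.

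The Smo peak combined a low fold with a high −log10 q. Its fold was at percentile 5.57 of replicate 1 and 14.9 of replicate 2, whereas its −log10 q, 48.9 and 82.1, was at percentile 89.1 and 97.2. Of 239 replicate 1 peaks with no more than its fold, 6 had at least its −log10 q, the Smo peak included, and the median −log10 q of the 239 was 3.36. In replicate 2 it was 7 of 421, with a median of 3.59. Of the 6 peaks in replicate 1, 5 had a partner, and of the 7 in replicate 2, 6 did. Without the inputs such a peak cannot be told apart from a region of high background.

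**Figure D3:**
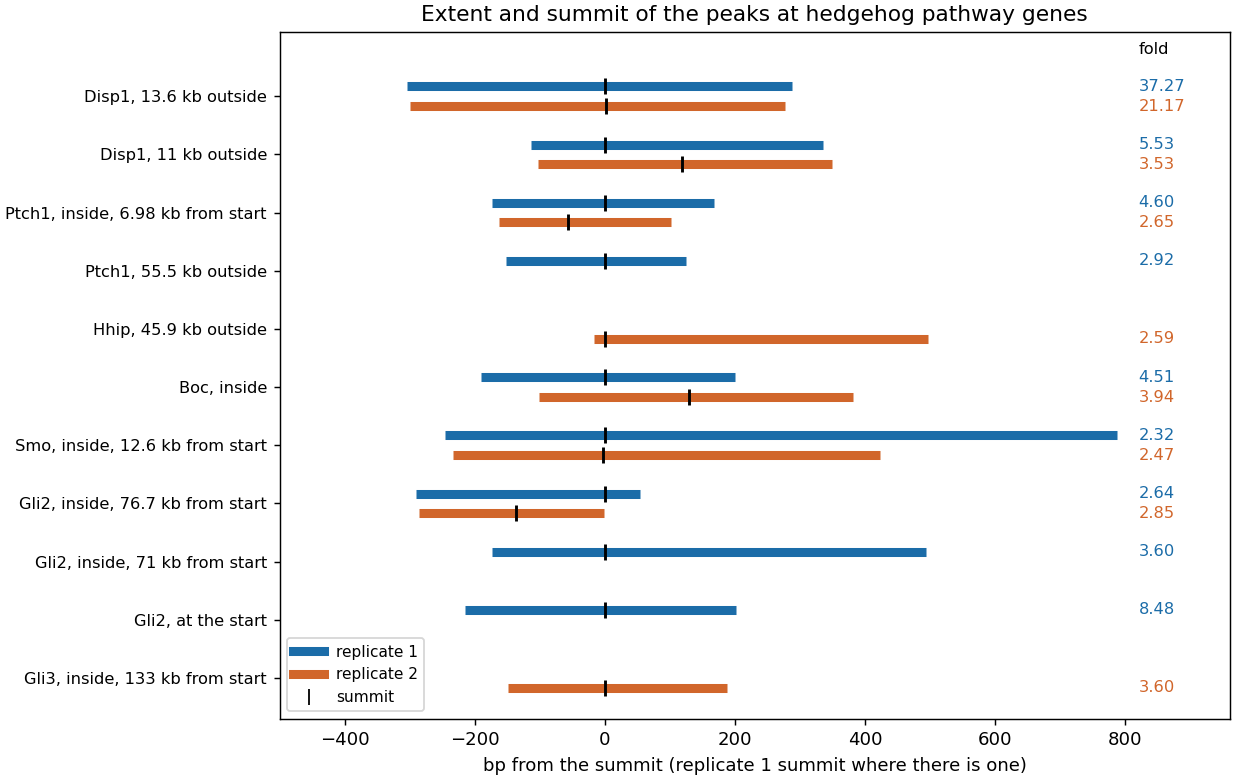
Extent of each peak of the hedgehog genes in bp from the summit of replicate 1 (of replicate 2 where replicate 1 had no peak), with replicate 1 above replicate 2, a black tick at each summit and the fold enrichment at the right. Summits of shared peaks lie between 1 bp apart at Disp1 and 136 bp apart at Gli2, and the Smo peak of replicate 1, at 1033 bp, is the longest.

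The 3 effector genes differed in what they carried. Gli1, which encodes an activator and is transcribed in response to the signal (chromosome 10, 127329882 to 127341579), had no peak within 100 kb. The nearest peak to it in either list was a replicate 1 peak inside Lrp1, 257 kb away. Shared peaks came no nearer than 585 kb.

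Gli2, which encodes the main activator of the response, had 4 peaks in the 2 lists, which formed 3 sites inside the gene (chromosome 1, 118834061 to 119054405, minus strand). The peak over the start, which covers the window printed above, was in replicate 1 (119053478 to 119053894) with 8.48-fold enrichment and a −log10 q of 69.2. Its fold was at percentile 92.1 of the list. Replicate 2 had no peak there, and its nearest summit was 76.9 kb away. At this height a missing partner was uncommon. Of 341 replicate 1 peaks with at least this fold, 13 (3.81%) had none, against 48.8% of all replicate 1 peaks.

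Peaks at annotated starts were a small part of each list. The share to be expected from the width of the windows was not worked out. In replicate 1, 57 peaks (1.33%) had their summit in a start window of the RefSeq table, and 18 of them (31.6%) had a partner in replicate 2. The Gli2 peak ranked 9 among the 57 by fold, and of the 9 highest, 8 had a partner. In replicate 2, 18 peaks had their summit in such a window, and 14 of them (77.8%) had a partner in replicate 1. Over the whole lists the shares with a partner were 51.2% in replicate 1 and 77.6% in replicate 2. The start windows of the table include noncoding genes.

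The shared Gli2 peak lay 76.7 kb downstream of the start. The replicate 1 peak (118976668 to 118977012) reached 2.64-fold with a −log10 q of 5.42. The replicate 2 peak (118976672 to 118976957) reached 2.85-fold with 4.95. Both folds were in the lower part of their list, at percentile 13.1 and 29.2, and the summits were 136 bp apart, the widest gap among the 6 shared peaks. A replicate 1 peak of 3.60-fold stood 5.67 kb from it, towards the start, and had no partner. The site found in both lists was the weakest of the 3 in replicate 1.

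Gli3, which encodes the main repressor of the pathway, had a peak in replicate 2 and none in replicate 1. The gene spans chromosome 13, 15463723 to 15730026, on the plus strand, and the peak lay inside it (15596755 to 15597091), 133 kb downstream of the start, with 3.60-fold enrichment and a −log10 q of 11.3. Its fold was at percentile 58.2 of the list and at percentile 90.1 among replicate 2 peaks without a partner, whose median fold was 2.78. Beyond the limit, a replicate 1 peak of 3.56-fold stood 381 kb from Gli3, which was its nearest protein-coding gene, and had no partner. No shared peak came nearer to Gli3 than 1710 kb.

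**Figure D4:**
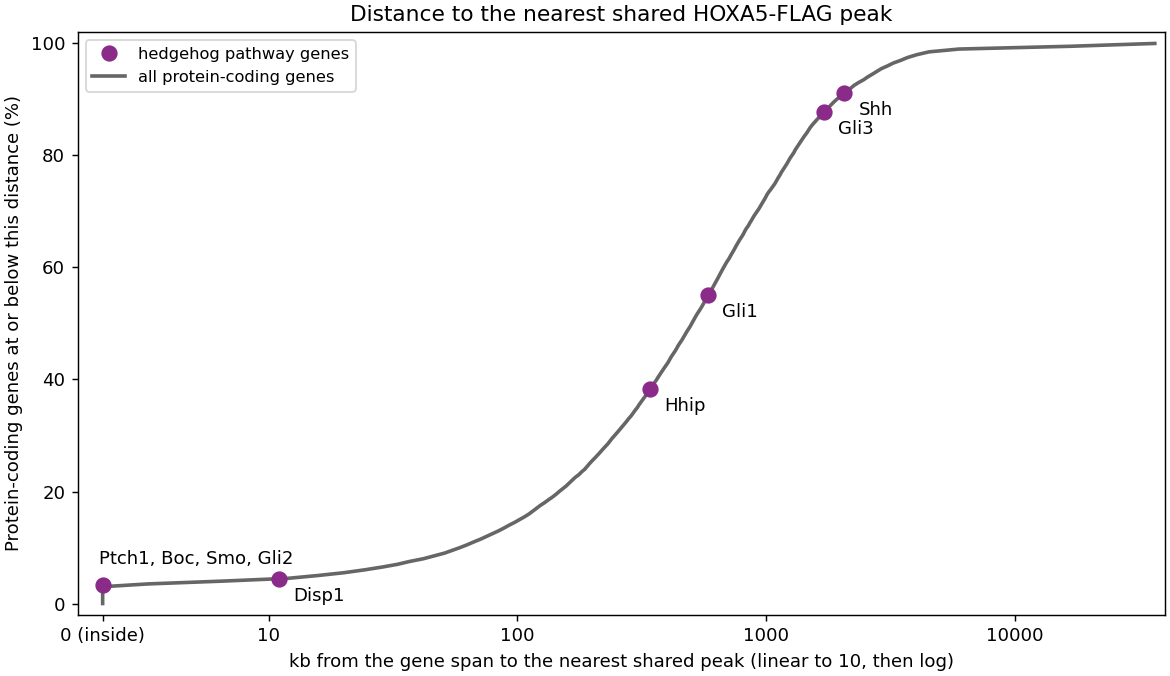
Percentage of protein-coding genes whose nearest shared peak is at or below a given distance from the gene span in kb (grey curve; axis linear to 10 kb, then log), with the 9 hedgehog genes as points on it. Ptch1, Boc, Smo and Gli2 hold a shared peak, Disp1 has one at 11 kb, and Shh, at 2060 kb, is the farthest of the 9.

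Set by distance, 4 of the 9 genes held a shared peak within their span, as did 3.25% of protein-coding genes. The median protein-coding gene was 503 kb from its nearest shared peak. Hhip (342 kb) was nearer than that, and Gli1 (585 kb), Gli3 (1710 kb) and Shh (2060 kb) were farther. Enrichment at the 9 genes was otherwise spread over the lists. In replicate 1, 5 of the 9 peaks were above the median fold of the list, and in replicate 2, 4 of the 8 were. The median fold of the members' peaks was 4.51 in replicate 1 and 3.19 in replicate 2.

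Of 47 other genes of the pathway matched in the annotation, 2 had a shared peak (4.26%, close to the 5.97% of all protein-coding genes). The 47 comprised 8 genes of other ligands and of ligand processing, 5 of reception, 16 of transduction, 5 of transport in the cilium and 13 targets. Disp3, a Dispatched relative, had a shared peak at 6.57 kb (chromosome 4, 148229717 to 148230008 in replicate 1) with 7.70- and 5.10-fold enrichment. Foxf2, a forkhead target gene of the lung mesenchyme, had one at 6.77 kb (chromosome 13, 31618905 to 31619230 in replicate 1) with 4.50- and 3.42-fold.

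A further 4 of the 47 had a peak in replicate 1 alone. In all, 6 of the 47 (12.8%) had a peak in at least 1 list, near the 11.7% of all protein-coding genes, so the peaks named here do not set the list apart. The replicate 1 peak was 6.14-fold and 19.2 kb from Sox9, a regulator of cartilage and of the distal lung epithelium, and 5.15-fold and 74.4 kb from Gas1, a ligand coreceptor. At Foxf1, the forkhead gene needed for lung mesenchyme, it was 4.79-fold and 81.4 kb away. At Prkacb, a catalytic subunit of protein kinase A, it was 3.61-fold and inside the gene. The other 41 were assigned no peak.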

How the data were processed

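Peaks had been called by the authors on each immunoprecipitate separately. Per the submitters' processing notes, MACS3 3.0.1, Bowtie2 2.5.2 and the mm10 build were used, along with SAMtools 1.18, bedtools 2.31.0, deepTools, FastQC 0.12.1 and Trim Galore. Settings, order and the peak caller's control: not given in the sources used here. Per the labels, 20 µg of formaldehyde-fixed chromatin, sonicated to 200 to 500 bp, went into each immunoprecipitation. At each summit the deposited lists give a fold enrichment (a ratio) and, as the authors' values too, −log10 p and −log10 q, the last above 2 throughout. The deposited score was not used. With no read counts, depth is unknown, and a difference in depth would change which peaks pass the threshold.

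Summits were assigned to RefSeq genes (GRCm38.p6). Of 49943 genes, 340 that start below 3 Mb (Y excepted) were removed as likely scaffold positions. Overlapping peaks were merged in chains and placed at the replicate 1 summit. Percentiles are the share of a list at or below a value. Python 3.11.15 with pandas 2.3.3 was used, and the rules were tested on simulated data. The members, the list of other pathway genes and the motifs were chosen with earlier results of these data known, and the span classes after the values were seen. All 9 members are named, with neighbours (some are not reported here), every other pathway gene with a shared peak and up to 4 with a peak in 1 list. No test was run. Exons and peak sequences were not used here. Intervals cover counting error and treat genes as independent.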

Additional observations from a re-analysis of the deposited data

How the results depend on the processing

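The number of hedgehog genes with a shared peak was 5, with 6 shared peaks. With summits required within 100 bp of each other there were 3 genes and 3 peaks, since Boc, Gli2 and the second Disp1 peak no longer counted. In the replicate lists taken alone the genes numbered 5 to 7 and the peaks 8 to 9. Under the other 7 alternatives there were 4 or 5 genes and 4 to 7 peaks. Ptch1 kept a peak under all 10 alternatives, and Boc and Smo under 9 each, Smo losing its peak with peaks of at most 1000 bp. Gli2 kept one under 8, losing it also with a −log10 q of at least 5. Disp1 kept one under 7, losing its peaks with limits of 10 kb and 1 kb and with the nearest gene of any type, where they went to Gm33747. The share of all protein-coding genes with a shared peak, 5.97%, was 3.95% with a limit of 10 kb, 3.32% with 1 kb and 7.50% with 1 Mb. It was 5.49% with a reciprocal overlap of 50%, 4.54% with summits within 100 bp, 4.96% with a −log10 q of at least 5, 4.68% with peaks of at most 1000 bp and 4.50% with the nearest gene of any type. In the replicate lists alone it was 7.58% to 10.4%. No paired analysis was possible because no groups were compared, the input libraries being unused. The unknown depth limits every statement that a gene had no peak.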
